A study of Mus musculus with 8 samples.

Results

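Described here are 36 places in the mouse genome where a BRG1 peak was called in all 3 replicates. At each of them at least 50% of the DNA under the peak is repeated sequence. BRG1, encoded by Smarca4, is the ATPase of SWI/SNF complexes, which slide and evict nucleosomes. PBRM1 (BAF180) is a subunit of the PBAF form of SWI/SNF and carries bromodomains that bind acetylated histones. Both were mapped by ChIC-Seq (chromatin immunocleavage sequencing), in which an antibody brings micrococcal nuclease to its target and the released fragments are sequenced. Repeats are sequences present in many copies, either side by side as in the satellite DNA around centromeres or scattered as old transposons. A short read from such a sequence can match several copies, and copies missing from the assembly can pile their reads onto the few that are in it.

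The members were chosen by a rule that used the BRG1 lists. A member is a peak of the list called on all BRG1 fragments together (the pooled list), on chromosomes 1 to 19, that overlaps a peak in each of the 3 BRG1 replicate lists and has at least 50% of its bases soft-masked. Soft-masked bases are those written in lower case in the assembly because they belong to repeats or low-complexity sequence. Of 82669 pooled BRG1 peaks, 81327 lay on chromosomes 1 to 19, 21134 of these were present in all 3 BRG1 replicates (reproducible), and 36 were members. BRG1 values at these peaks are therefore given as a description, without a test.

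All libraries came from primary uterine stromal cells of WT mice aged 8 to 12 weeks on D4 of pregnancy, given as pseudopregnant in the extraction protocol, with 5 to 10 uterine horns in a preparation and 50000 fixed cells in a library. There were 3 replicates with the PBRM1 antibody and 3 with the BRG1 antibody, and 2 further libraries made with IgG are not used here. The study describes the 3 replicates as biological, and the labels do not say which preparation each came from. BRG1 replicates held 11506964 to 14595089 fragments and PBRM1 replicates 8868777 to 16505239. A reproducible BRG1 peak lay within 2000 bp of the transcription start site (TSS) of 8 of 10 stromal marker genes, 5 of 9 epithelial, 0 of 3 immune and 2 of 3 endothelial ones, which does not measure expression.

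Sequence sorted the members into families. All-against-all alignment (at least 80% identity over at least 100 bases) joined 9 of the 36 into a first group and 3 into a second, while 2 shared a stretch of 108 bases at 83.3% identity and 22 stood alone. The 9 members of the first group were AT-rich, with a GC content of 34.2% to 36.9% against a median of 60.7% in the other reproducible peaks, and were 67.1% to 100% masked. They lay on chromosomes 2, 9, 12 and 14. An exact run of 50 bases, in either orientation, was present in all 9. It is shown in capitals with 20 bases on either side for 3 members (mm10, plus strand), since it is the sequence that ties sites on different chromosomes together:
Gm10800 member, chr2:98666651-98666740: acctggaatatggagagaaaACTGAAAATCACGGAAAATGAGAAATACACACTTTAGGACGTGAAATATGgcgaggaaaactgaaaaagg
Gm33838 member, chr9:35305463-35305552: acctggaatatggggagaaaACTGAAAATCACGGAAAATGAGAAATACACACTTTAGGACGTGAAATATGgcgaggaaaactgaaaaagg
Gm21738 member, chr14:19415727-19415816: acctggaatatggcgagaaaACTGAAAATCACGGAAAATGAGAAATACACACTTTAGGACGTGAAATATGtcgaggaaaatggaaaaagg

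These letters are those of the mouse major satellite, the tandem array that fills pericentromeric heterochromatin; the name is textbook knowledge, since the assembly's masking gives no repeat names. The tandem structure was measured by sliding a peak's sequence against itself. In the member at Gm10717, 83.1% of bases matched at a shift of 467 bases, 69.3% at 234 bases and 56.7% at 58 bases, against a median of 30.6% over all shifts up to 600 bases. At Gm10800 the match at 234 bases was 54.5%, with a median of 28.5%.

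**Figure D1:**
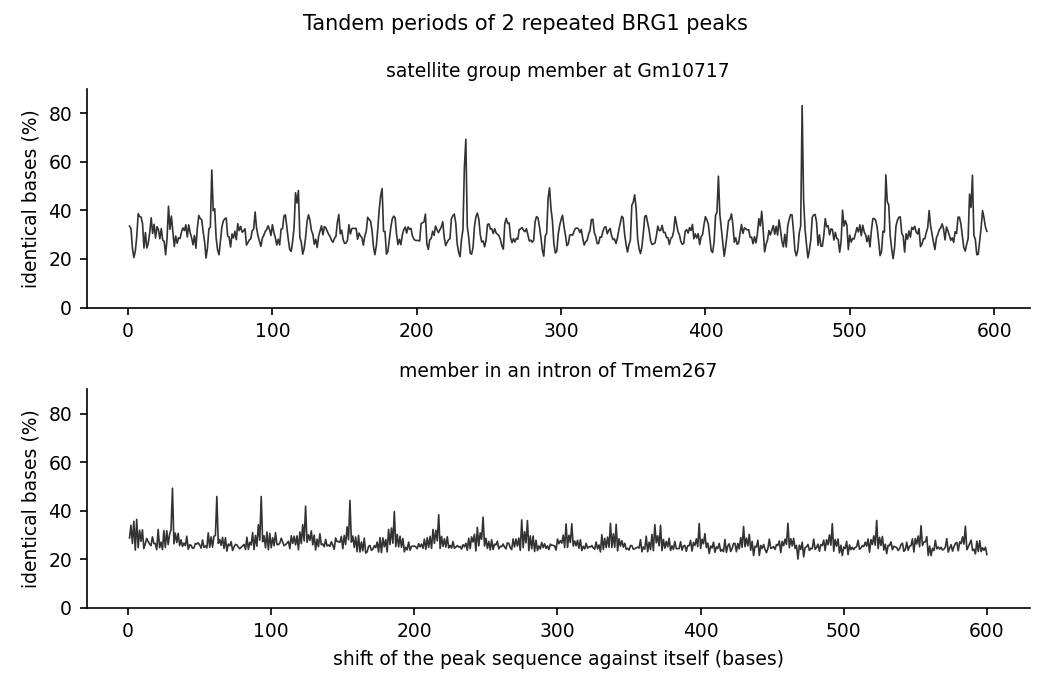
Identical bases (%) when the sequence of a peak is shifted against itself by the number of bases on the x axis, for the satellite member at Gm10717 and the member in an intron of Tmem267. The Gm10717 member has its highest match at 467 bases (83.1%) and its next at 234 bases (69.3%), and the Tmem267 member its highest at 31 bases (49.3%), with lower peaks at multiples of it.

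The second group had 3 members of 405 to 540 bp, 84.6% to 92.7% identical to each other over 409 to 488 bases. One lay at chr10:78124165-78124641 in an exon of the noncoding gene Gm47922, one at chr15:83268316-83268720 between genes, and one at chr7:99818181-99818720 in an intron of Neu3, which encodes a plasma membrane sialidase. Their GC content was 55.6% to 57.3%. The longest run shared by all 3 had 38 bases and is in capitals, printed in one orientation (minus strand for chromosomes 15 and 7) with 30 bases on either side to show how the copies diverge outside it:
Gm47922 member, chr10:78124340-78124437: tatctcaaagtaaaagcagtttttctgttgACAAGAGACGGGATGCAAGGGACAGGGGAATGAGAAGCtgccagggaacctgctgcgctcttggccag
Gm32886 member, chr15:83268508-83268605: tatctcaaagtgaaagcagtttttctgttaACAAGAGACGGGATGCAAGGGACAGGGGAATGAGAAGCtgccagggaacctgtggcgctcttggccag
Neu3 member, chr7:99818397-99818494: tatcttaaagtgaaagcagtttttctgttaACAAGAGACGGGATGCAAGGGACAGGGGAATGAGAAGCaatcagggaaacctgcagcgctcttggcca

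The remaining members mixed repeat types. The member in an intron of Tmem267, a gene for a transmembrane protein, was a tandem array of its own with a period of 31 bases. A stretch of 4 consecutive units is printed, alternately in capitals and lower case:
Tmem267 member, chr13:119597296-119597419: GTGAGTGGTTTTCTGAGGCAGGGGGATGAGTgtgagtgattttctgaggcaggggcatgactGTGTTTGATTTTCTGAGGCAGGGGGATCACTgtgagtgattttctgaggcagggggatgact

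The most masked member outside the satellite group, 97.1% masked, was the intergenic peak chr5:38598373-38598793 (nearest TSS 4930421P07Rik, 23342 bp away). In the next sequences 150 bases around the pooled BRG1 summit are shown with masked bases in capitals. They contrast this member, whose summit is masked, with the strongest non-satellite member, whose summit is unmasked although it carries a CTTT run of 83 bases elsewhere, and with a member without a pooled PBRM1 peak that carries a CA run of 33 bases:
4930421P07Rik member, chr5:38598455-38598604: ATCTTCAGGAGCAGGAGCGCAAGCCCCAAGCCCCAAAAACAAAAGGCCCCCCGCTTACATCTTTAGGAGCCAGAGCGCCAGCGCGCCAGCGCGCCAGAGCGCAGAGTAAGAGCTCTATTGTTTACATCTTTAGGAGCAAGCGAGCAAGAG
Gm28502 member, chr15:75086727-75086876: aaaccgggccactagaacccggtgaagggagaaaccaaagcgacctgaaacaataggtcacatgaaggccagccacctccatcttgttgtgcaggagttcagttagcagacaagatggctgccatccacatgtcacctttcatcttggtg
Rpl9-ps3 member, chr11:53492948-53493097: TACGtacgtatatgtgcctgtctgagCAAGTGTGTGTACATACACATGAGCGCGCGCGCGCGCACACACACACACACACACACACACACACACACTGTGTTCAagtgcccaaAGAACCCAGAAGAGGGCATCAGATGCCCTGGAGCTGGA

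The summit base itself was masked in 23 of 36 members and in 4.05% of the other reproducible peaks. Runs of at least 20 bases of a 1 to 6 base unit were present in 5 of 36 members (13.9%) and in 8.04% of the others. No member matched the mitochondrial sequence or any of 1485 small RNA genes (tRNA, 7SL, 7SK, snRNA, rRNA and related) at the family limits. Genes shorter than the 100 aligned bases of these limits could not match, so for them this comparison decides nothing. None of the members overlapped such a gene. An annotated pseudogene was overlapped by 0 of 36 members and by 0.844% of the other reproducible peaks, so that 0 says little.

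Members were rare among both repeats and BRG1 peaks. Of the bases of chromosomes 1 to 19, 33.5% are masked, yet the median masked share of a reproducible BRG1 peak was 5.0% and the 95th percentile was 18.7%. Of 2301 pooled BRG1 peaks with at least 50% masked bases, 36 (1.56%) were found in all 3 replicates and 1423 (61.8%) in none. Among the 79026 less masked pooled peaks these shares were 26.7% and 36.4%. Just inside the limit stood Gm24735 (50.5% masked, pooled BRG1 fold enrichment 10.6), Nploc4 (50.5%, 4.87) and Acer2 (50.7%, 6.19). Just outside stood Gm18631 (49.3%, 6.05), Cdh26 (49.5%, 5.91) and Lsm14b (49.6%, 6.43).

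**Figure D2:**
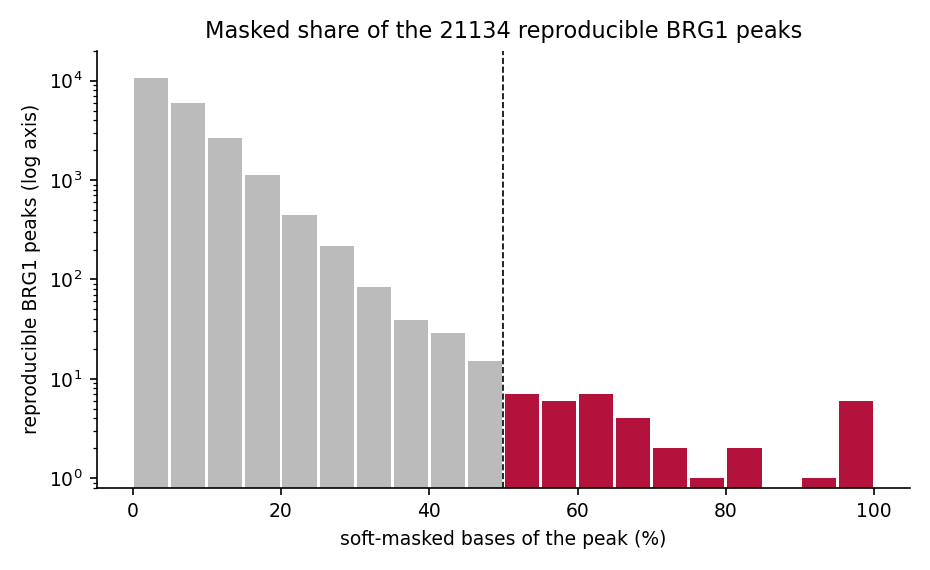
Number of reproducible BRG1 peaks (log axis) by the share of their bases that is soft-masked, in steps of 5%, with the 50% limit as a dashed line and the 36 members in red. The count falls from 10556 peaks in the lowest step to 7 just above the limit, and 6 peaks lie in the highest step.

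Of the members, the one at Nploc4 alone was unique along its whole length. Of the 31-base words of the members, 53.6% occur once in the assembly, against 98.9% in the other reproducible peaks. The share was 28.3% in the satellite group, from 2.31% in the member at Gm11168 to 60.3% in that at Gm21738. Outside that group it was 68.6%, being 57.3% for words in masked and 85.6% for words in unmasked bases. The member at the promoter of Nploc4, which encodes a cofactor of the segregase VCP, had 100% unique words although 50.5% of its bases were masked. At 10 of the 27 members outside the satellite group no other place on chromosomes 1 to 19 aligned over the summit, and at 10 at least 100 did. In the satellite group this number was 14 to 292. Alignments needed at least 80% identity over at least 100 bases and were not started in low-complexity sequence. A count of 0 therefore does not make a summit unique. The Rpl9-ps3 member had 0, yet its summit lies in the CA run and a 31-base word of its peak occurs 1145144 times. The authors kept read pairs with a mapping quality of at least 20, which removes most reads that match several places equally well.

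BRG1 signal at several satellite members was among the highest of all reproducible peaks. Pileup, the number of fragments over the summit, is given here divided by the mean coverage of its own library (relative pileup), so that libraries of different depth and fragment length can be set side by side. The member at Gm10800 (chr2:98666249-98667328) had relative pileups of 2612, 2892 and 2778 in the BRG1 replicates and 4775, 3949 and 3824 in the PBRM1 replicates. Its pooled BRG1 pileup of 6865 fragments ranked 1 of 21134, and all 3 PBRM1 values lay above all 3 BRG1 values.

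The member at Gm33838 (chr9:35305226-35305585) had 459, 450 and 504 in BRG1 and 747, 587 and 665 in PBRM1, again without overlap. Gm10801 (chr2:98662250-98662972) had 326, 356 and 352 in BRG1 and 470, 430 and 463 in PBRM1, and did not overlap either. Gm10717 (chr9:3024449-3025639) had 132, 122 and 147 in BRG1 and 158, 126 and 138 in PBRM1, and here the antibodies overlapped. These names are those of predicted gene models.

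The long member at Gm21738 (chr14:19415737-19418005, 2269 bp) had 117, 63.1 and 121 in BRG1 and 157, 124 and 128 in PBRM1, with no overlap although BRG1 replicate 2 was low. Gm11168 (chr9:3007568-3009499, 98.0% masked) had 17.4, 11.8 and 11.8 in BRG1 and 23.4, 20.1 and 24.9 in PBRM1. Gm10715 (chr9:3035877-3036101) ran in the other direction, with 34.8, 38.1 and 43.4 in BRG1 and 27.8, 26.8 and 21.02 in PBRM1. Neither overlapped between antibodies. Gm10718 (chr9:3022101-3023574) had 43.0, 34.2 and 36.8 in BRG1 and a peak in 2 PBRM1 replicates, at 33.7 and 28.03.

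Of the 36 members, 6 (16.7%) had a pooled BRG1 relative pileup of at least 100, against 2.02% of all reproducible BRG1 peaks. They were 5 satellite members and the Gm28502 member. At the other end of the satellite group, the member at chr12:3109871-3110095 (nearest TSS Gm9075) had 10.2, 7.89 and 10.5 in BRG1 and a peak in a single PBRM1 replicate, at 7.01. Outside the satellite group the median pooled relative pileup was 15.2, below the 29.6 of the other reproducible peaks and near the 17.6 of those away from promoters.

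**Figure D3:**
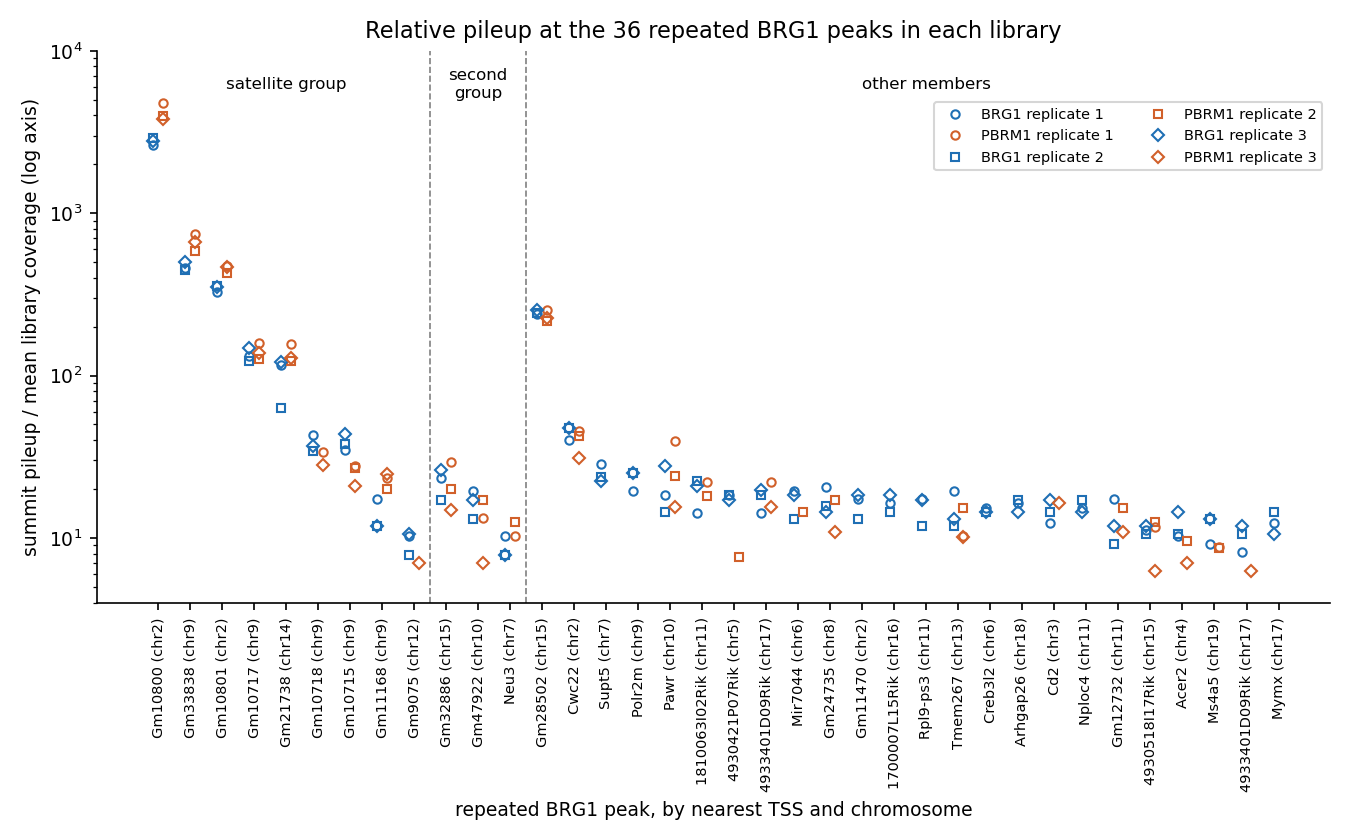
Relative pileup (summit pileup over mean library coverage, log axis) at each of the 36 members, labelled by nearest TSS and chromosome, for the 3 BRG1 (blue) and 3 PBRM1 (orange) replicates; a missing point is a library without a peak. The satellite members span 7.01 to 4775, and the other members lie between 6.23 and 47.3, except the Gm28502 member at 217 to 252.

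Fold enrichment told the satellite members apart less than pileup did, because it divides by a background estimated within 10000 bp of the same peak. Gm33838 had the highest pooled BRG1 fold enrichment of the members, 36.2, and Gm10800 and Gm10717 had 26.8 and 26.3. Gm10801, with the third highest relative pileup of the members, had a fold enrichment of 3.25. Its local background was 102 times the genome-wide background, as was that at Gm10800, its neighbour on chromosome 2. These peaks lie within 10000 bp of each other and no control was used, so their backgrounds share fragments and are not independent. This relative local background was at least 10 in 4 of 9 satellite members, Gm10801 and Gm10800 among them, and in 0 of the other 27. A value of at least 5 was reached by 7 of 36 members (19.4%), against 26.7% of all reproducible BRG1 peaks.

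Libraries were close in fold enrichment at the strongest members. At Gm10800 it was 25.7, 27.5 and 26.8 in BRG1 and 24.7, 23.0 and 22.8 in PBRM1, a small step down without overlap. At Gm33838 it was 34.6, 33.1 and 34.9 in BRG1 and 35.2, 32.4 and 34.0 in PBRM1, and the antibodies overlapped. Peaks were called without a control, so the local background at such peaks includes the peak's own fragments. Close fold enrichments therefore do not show equal signal. The summits of all 6 replicates fell on 1 base at Gm10800 and within 2 bases at Gm33838 and 5 bases at Gm10717. In the other reproducible peaks called in all 6 replicates the median spread of the summits was 196 bp. Other satellite members did not share the tight summits, with a spread of 1646 bp at Gm21738, 1552 bp at Gm11168, 244 bp at Gm10801 and 187 bp at Gm10715. Over the 7 satellite members called in all 6 replicates the median spread was 187 bp.

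The order of the antibodies at the satellite members was rare among BRG1 peaks. Across the 12803 reproducible BRG1 peaks called in all 3 PBRM1 replicates too, every PBRM1 relative pileup lay below every BRG1 value at 66.0% and above at 0.0859% (11 peaks). Of the 14 members called in all 6 replicates, PBRM1 lay above BRG1 at 5 and below at 1. The 5 were the satellite members at Gm10800, Gm33838, Gm10801, Gm21738 and Gm11168, and the 1 below was the satellite member at Gm10715. The other 6 of the 11 peaks were 10.3% to 40.6% masked. The median ratio of pooled PBRM1 to pooled BRG1 relative pileup was 1.13 in the satellite group, 0.739 in the other members with a pooled PBRM1 peak and 0.550 in the other reproducible peaks.

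**Figure D4:**
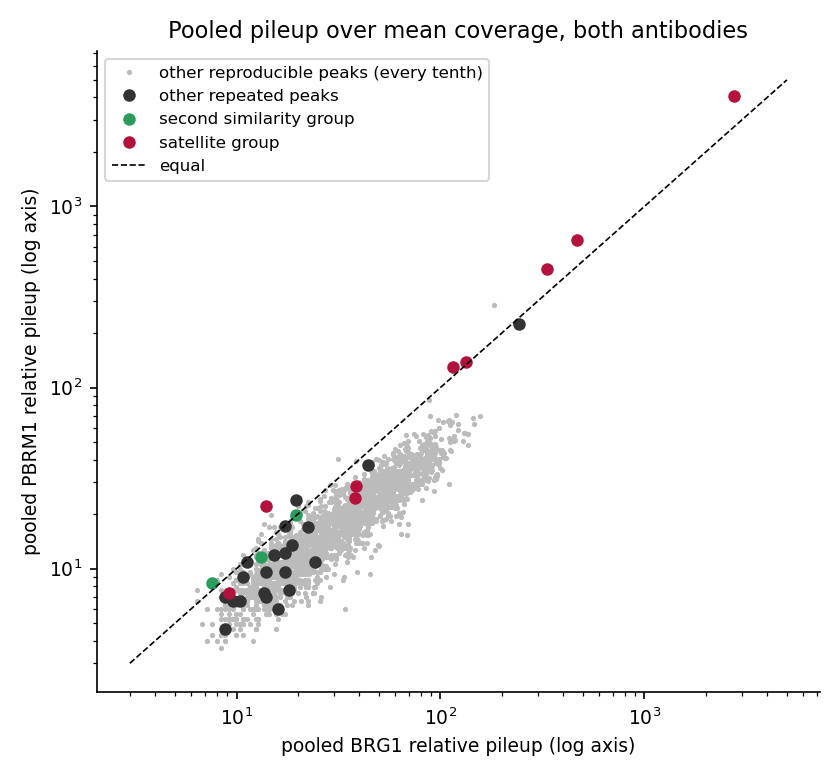
Pooled PBRM1 against pooled BRG1 relative pileup (log axes) for the 33 members with a pooled PBRM1 peak and an evenly thinned subset of the other reproducible BRG1 peaks (grey), with the line of equality dashed. Most other peaks lie below the line, with a median ratio of 0.550, and the strongest satellite members lie on or above it, up to 4073 for PBRM1 at Gm10800.

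Whether these sites would give signal without a specific antibody cannot be told apart here from binding by both proteins, because both antibodies share the cells and the protocol and no IgG values are used here. What was measured is that 7 of 9 satellite members were peaks in all 6 replicates and that Gm10800 had the highest pooled relative pileup of the reproducible BRG1 peaks with either antibody. The rule required the 3 BRG1 peaks, and 60.6% of all reproducible BRG1 peaks had a peak in all 3 PBRM1 replicates. Of the 13352 pooled PBRM1 peaks found in all 3 PBRM1 replicates, 17 were at least 50% masked. Of these 17, 14 overlapped a member, 7 of them in the satellite group, and all 17 overlapped a pooled BRG1 peak. The share of all 13352 that overlap a pooled BRG1 peak is not given here, so the 17 cannot be set against it. Sequence like the satellite members formed 34 loci, 6 of which hold members, on 16 chromosomes. Of the 34, 8 (23.5%) had a pooled BRG1 peak and 7 a pooled PBRM1 peak, and all 7 had both. The rule required a BRG1 peak at the 6 loci with members, so the BRG1 share is a description only.

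PBRM1 overlapped most members but was called less often per library. A pooled PBRM1 peak overlapped 33 of 36 members (91.7%, interval 78.2% to 97.1%), against 97.1% of all reproducible BRG1 peaks. A peak in all 3 PBRM1 replicates was present at 14 of 36 (38.9%), against 60.6%, and in none at 9 of 36 (25.0%), against 9.76%. Per PBRM1 replicate, 52.8%, 61.1% and 61.1% of members had a peak, against 76.2%, 80.7% and 71.7% of the other reproducible BRG1 peaks. The mean difference of -17.9 percentage points had the same sign in 3 of 3 libraries (exact sign-flip permutation test over libraries, two-sided, p = 0.25, and 3 libraries allow none smaller). When peaks had to be present in the other 2 BRG1 replicates alone, it was -26.3 points without BRG1 replicate 1, -33.9 without replicate 2 and -33.2 without replicate 3.

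Place moved with this difference. Away from promoters the shares were 46.2%, 57.7% and 57.7% in members and 50.1%, 61.1% and 53.5% in the others, a mean difference of -1.07 points with mixed signs (exact sign-flip permutation p = 1). Without the satellite group the difference over all peaks was -28.1 points. The satellite group itself had a PBRM1 peak at 8, 7 and 9 of its 9 members in the 3 PBRM1 replicates, and the other 27 members at 11, 15 and 13.

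**Figure D5:**
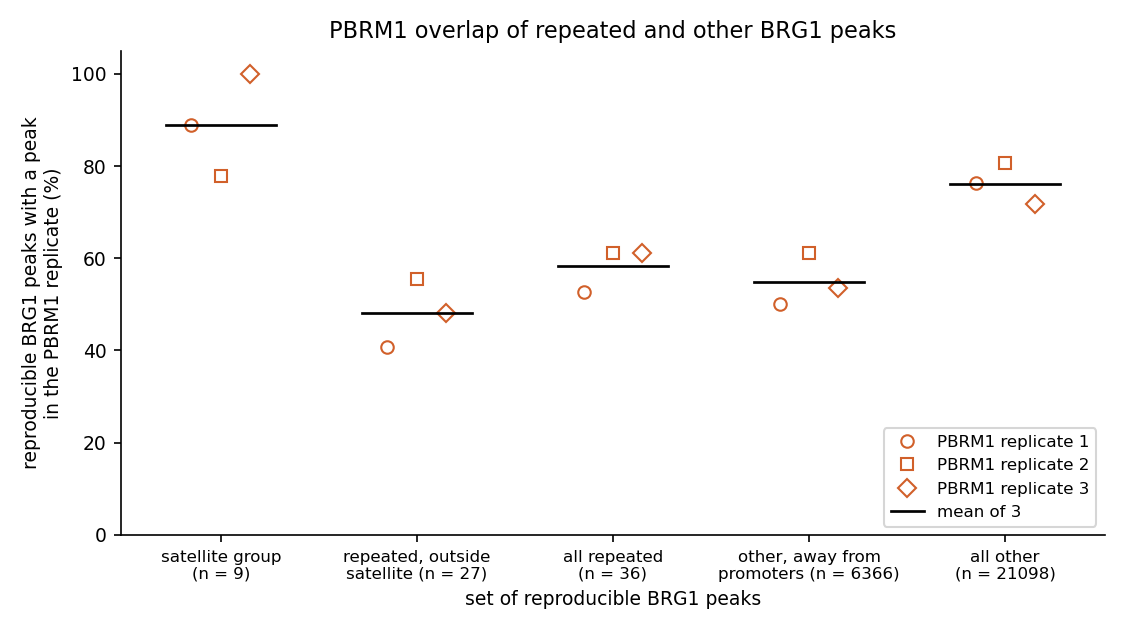
Share of reproducible BRG1 peaks (%) with a peak in each PBRM1 replicate (symbols) and the mean of the 3 (bar), for the satellite group, the other members, all members, other peaks away from promoters and all other peaks. Satellite members reach 77.8% to 100%, the other members 40.7% to 55.6%, and other peaks away from promoters 50.1% to 61.1%.

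The 9 members without a peak in any PBRM1 replicate had mean BRG1 relative pileups of 12.4 to 24.9, and 6 of them did overlap a pooled PBRM1 peak. The 3 without one were chr6:37463889-37464665, 21743 bp from the TSS of Creb3l2, a membrane-bound transcription factor of the secretory pathway, chr11:53492944-53493223 near Rpl9-ps3, and chr16:33346477-33346780 near 1700007L15Rik. The Creb3l2 member had BRG1 relative pileups of 15.3, 14.5 and 14.5 and a pooled fold enrichment of 8.46. The Rpl9-ps3 member had 17.4, 11.8 and 17.1 and a fold enrichment of 5.11. The 1700007L15Rik member had 16.4, 14.5 and 18.4 and a fold enrichment of 4.96. The ranges of the 3 overlapped.

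Where PBRM1 was called, its strength at members was close to that elsewhere. The median log2 fold enrichment in PBRM1 replicates 1, 2 and 3 was 2.86, 2.78 and 2.51 at members and 2.76, 2.61 and 2.40 at the other reproducible BRG1 peaks. The mean difference of 0.13 on the log2 scale was positive in 3 of 3 libraries (exact sign-flip permutation p = 0.25), and it turned to -0.16 without the satellite group (p = 0.75, the same exact permutation test). It was 0.05 without BRG1 replicate 2 and 0.05 without BRG1 replicate 3, where PBRM1 replicate 1 turned to -0.21 (exact sign-flip permutation p = 0.75). The mean difference in median log2 local background in the PBRM1 libraries was -0.52, lower at members in 3 of 3 libraries (exact sign-flip permutation p = 0.25). It turned to 0.83 and 0.31 with at least 75% and 90% masked bases, and to 0.59 where at least 50% of the pooled peak had to be covered in each BRG1 replicate. Only called peaks enter these medians.

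Outside the satellite group a single member reached a relative pileup of 100 with either antibody. The Gm28502 member (chr15:75085505-75087015, intergenic, 6411 bp from the TSS) had BRG1 relative pileups of 240, 242 and 252 and PBRM1 values of 252, 217 and 227. The antibodies overlapped, and its pooled fold enrichments were 27.9 and 22.3. Its summit, printed above, is unmasked, and aligned to 8 other places on chromosomes 1 to 19. One of these, chr18:3004707-3005830, 4706 bp from the end of the assembled sequence, had a peak in all 6 replicates with pooled fold enrichments of 17.4 for BRG1 and 16.6 for PBRM1. The other 7 had none in any replicate list. Of the 8 copies, 6 lay within 1000000 bp of an end of the assembled chromosome.

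The member 30884 bp from the TSS of Pawr, which encodes the proapoptotic protein PAR-4, had BRG1 relative pileups of 18.4, 14.5 and 27.6 and PBRM1 values of 39.6, 23.95 and 15.6. The replicates of the 2 antibodies overlapped widely. Its pooled PBRM1 fold enrichment of 13.6 was the fifth highest of the members. The 4930421P07Rik member leaned the other way, with 18.4, 18.4 and 17.1 in BRG1 and a peak in a single PBRM1 replicate, at 7.66. The Tmem267 array had 19.4, 11.8 and 13.1 in BRG1 and 10.3, 15.3 and 10.1 in PBRM1, which overlapped. The member in an intron of Cwc22, which encodes a splicing factor, carries a GT run of 29 bases and had 39.9, 47.3 and 47.3 in BRG1 and 45.4, 42.2 and 31.1 in PBRM1, which overlapped, at a relative local background of 7.77. The Gm24735 member had 20.5, 15.8 and 14.5 in BRG1 and a peak in 2 PBRM1 replicates, at 17.2 and 10.9.

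Copies of the second group are described beside copies of other members outside the satellite group. Sequence like it formed 174 loci on 19 chromosomes, of which 26 (14.9%, interval 10.4% to 20.99%) had a pooled BRG1 peak, 22 (12.6%) a pooled PBRM1 peak, 20 both, and 6 a reproducible BRG1 peak. Pooled BRG1 peaks cover 1.46% of the bases of chromosomes 1 to 19. That is a share of bases, whereas a whole locus counted with 1 bp of overlap, so it is too low a yardstick for loci. Per replicate, 13, 11 and 12 of the 174 had a BRG1 peak and 12, 14 and 7 a PBRM1 peak. The 174 loci include the 3 members themselves, which the rule required to have a BRG1 peak. With each member's own locus left out, 15.2%, 13.9% and 15.6% of its other copies had a pooled BRG1 peak (Gm47922, Gm32886 and Neu3). Other members of the group still count among these copies. By the same count, members with copies elsewhere that belong to neither group had a median share of 0.586% and a highest of 12.5%. The group was formed from similar sequences that all passed the BRG1 rule. Its shares are therefore raised by the choice and cannot be compared fairly with those of members standing alone. The strongest member of the group, near Gm32886, had 23.5, 17.1 and 26.3 in BRG1 and 29.3, 20.1 and 14.8 in PBRM1, with overlap. Copies that have a peak are not independent, since reads can be shared among them.

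Most members lay away from a TSS. Of the 36, 10 (27.8%, interval 15.8% to 44.0%) were within 2000 bp of a TSS, against 69.8% of all reproducible BRG1 peaks, 2 in exons, 7 in introns and 17 between genes. The 10 promoter members included 6 of the 9 satellite members, placed there by predicted protein-coding models such as Gm10800 and Gm10717 that lie within the array. Without that group 4 of 27 (14.8%) were promoter members, at Acer2, a Golgi ceramidase gene, Nploc4, Supt5, which encodes the transcription elongation factor SPT5, and the noncoding gene 1810063I02Rik. Of 52 genes of steroid signaling and implantation, 42 were the nearest gene of some reproducible BRG1 peak and 0 of a member. With 36 members among 21134 reproducible peaks, that 0 says little about these genes. The masked share of the 2000 bases on either side had a median of 44.5%, against 21.6% around the other peaks, with 95.3% to 97.7% at the 4 members on the chromosome 9 array.

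Motif strings were counted within 250 bases of the pooled summit on both strands, as letters and not as binding sites. The AP-1 string TGANTCA was present in 4 of 36 members (11.1%) and in 12.9% of the other reproducible peaks (23.6% of those away from promoters), all 4 outside the satellite group. The TEAD string GGAATG was present in 7 members (19.4%, others 20.2%, away from promoters 26.3%), GATAAG for GATA factors in 3 (8.33%, others 7.72%, away from promoters 11.0%), and TGTTCT, part of the steroid receptor element, in 10 (27.8%, others 21.8%, away from promoters 33.1%). GGAAGT for ETS factors was present in 15 (41.7%, others 31.9%, away from promoters 30.1%), of which 14 lay among the 27 members outside the satellite group (51.9%). The GC-rich strings were rarer, GGGCGG for SP and KLF factors in 8 (22.2%, others 63.4%, others away from promoters 31.3%) and AGGGGGC, the CTCF core, in 0 (others 20.2%, away from promoters 14.2%). GGGCGG was in 0 of the 9 AT-rich satellite members and in 8 of the other 27 (29.6%), near the share away from promoters. CCAAT for NF-Y was present in 7 (19.4%, others 43.5%, away from promoters 43.0%) and TGACGTC for CREB and ATF factors in 0 (others 5.44%, away from promoters 2.98%). GGAATG also lies within the run shared by the second group.

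Masked peaks were also counted in the whole replicate lists. Peaks with at least 50% masked bases made up 0.979%, 1.16% and 0.842% of the PBRM1 replicate lists and 1.62%, 1.72% and 1.66% of the BRG1 lists. The difference of -0.673 points separated the antibodies without overlap (exact permutation test of 3 against 3 lists, two-sided, p = 0.1, and no smaller p is possible). Among the 10000 peaks of each list with the highest significance it turned to 0.187 points (exact permutation p = 0.1). With lists limited to peaks whose -log10 q reached 5, it was -0.129 points (exact permutation p = 0.2), and the lists overlapped, with 0.553% in PBRM1 replicate 2 and 0.521% in BRG1 replicate 2.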

How the data were processed

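ChIC-Seq peak lists of 3 PBRM1 and 3 BRG1 replicates and both pooled lists were used. According to the methods and file headers, the authors trimmed read pairs with cutadapt, aligned them to mm10 (GRCm38) with Bowtie2, kept pairs with a mapping quality of at least 20, removed duplicates and called peaks with MACS 2.2.7.1 at a q-value of 0.05 without a control. The deposited pileup is a signal, an unscaled count of fragments over the summit. The deposited fold enrichment is a ratio, (pileup + 1) over (local background + 1), from which local background was derived. The deposited -log10 q-value was used for stricter limits only.

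Relative pileup is pileup over mean coverage (fragments times fragment length over the authors' effective genome size). Sequence and masking came from the RefSeq GRCm38 assembly, genes from GENCODE, and 1 bp of overlap counted. Word counts were computed with numba 0.67.0 and alignments with blastn 2.17.0. Tests were exact sign-flip or permutation tests over libraries, run on simulated data first. Wilson intervals (95%) cover counting error only. Named peaks were the 5 highest by BRG1 fold at and away from promoters, by pileup, by PBRM1 fold, by background and without PBRM1, the 3 longest, the 3 on either side of the limit and the strongest of each family, and any others were named after their values were seen. Members and lists were chosen with earlier results of these data known.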

Additional observations from a re-analysis of the deposited data

Results flagged for a closer look

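Signal lay outside the chromosomes analysed. On chromosomes X and Y and the mitochondrion 4 reproducible BRG1 peaks had at least 50% masked bases, 3 of 455 on X, 1 of 5 on Y and 0 of 3 on the mitochondrion. On unplaced or unlocalized contigs 20 reproducible BRG1 peaks were found, with a fold enrichment of up to 44.6. They are listed because they lie outside the peaks described above. No expected number was available, no control library was used, and no test was run.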

How the results depend on the processing

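The number of members depended on the limits. It was 418, 10 and 7 at masked shares of at least 25%, 75% and 90%, 20 when at least 50% of the pooled peak had to be covered in each BRG1 replicate, and 56 to 77 with a BRG1 replicate left out. At 75% and 90% masking, where the satellite group makes up most members, and with 50% coverage, the log2 local background difference reversed to 0.83, 0.31 and 0.59. At 90% the PBRM1 overlap difference reversed to 0.0225 points and the pooled PBRM1 share moved to 100%; that share was 70.8% to 80.5% with a BRG1 replicate left out. The PBRM1 fold enrichment difference reversed to -0.14 at 25% and to -0.16 without the satellite group, an alternative chosen after seeing the data. The promoter share moved to 50% at 75% masking, 45% with 50% coverage and 14.8% without the satellite group. The share of unique words moved to 88.8%, 28.9% and 12.3% at 25%, 75% and 90%, 41.1% with 50% coverage, 43.6% with 24-base words, 68.6% without the satellite group, and 58.5% to 61.0% with a BRG1 replicate left out. The masked-share difference of whole lists reversed to 0.187 among the top 10000 peaks. The cause was not tested. Weighting the other peaks to the members by fold enrichment and promoter left a PBRM1 overlap difference of -6.16 points, and weighting by length -10.0 points. Of the values under alternatives, 73 kept direction or range, 21 moved and 7 reversed.

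Same-numbered PBRM1 and BRG1 replicates did not deviate together in fold enrichment (correlations of -0.042, -0.013 and -0.012 over 12803 peaks). Such deviations hold counting noise, so this cannot tell whether same-numbered libraries shared a preparation. With the replicate numbers as a block the masked-share difference stayed at -0.673 points (exact sign-flip permutation p = 0.25, the smallest possible). How depth bears on these values was not tested, and fragments per PBRM1 replicate ranged from 8868777 to 16505239.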

Other observations

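A pair of members hold an AP-1 string inside a similar masked stretch. They lie near Gm11470 (chr2:167004439-167004926) and 97039 bp from the TSS of Polr2m, which encodes a subunit of RNA polymerase II. Neither had a peak in any PBRM1 replicate, which held for 9.76% of all reproducible BRG1 peaks. Both did overlap a pooled PBRM1 peak, with a fold enrichment of 3.61 at Gm11470 and 8.55 at Polr2m. The string is in capitals (mm10, plus strand):
Gm11470 member, chr2:167004590-167004626: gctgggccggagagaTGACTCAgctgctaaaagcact
Polr2m member, chr9:71387588-71387624: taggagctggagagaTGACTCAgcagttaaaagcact

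The word GAGAGATGNCTCAG around it, chosen after these sequences were seen, occurs on chromosomes 1 to 19 with A at N in 3955 places, which gives the AP-1 string, and with G at N in 50328 places. A pooled BRG1 peak covered 24 of the A copies (0.607%, 95% Wilson interval 0.408% to 0.901%) and 128 of the G copies (0.254%, interval 0.214% to 0.302%). A pooled PBRM1 peak covered 13 of the A copies (0.329%, interval 0.192% to 0.562%) and 97 of the G copies (0.193%, interval 0.158% to 0.235%). With C or T at N, 1 of 794 and 1 of 1187 had a pooled BRG1 peak. The 24 A copies include both members the word was taken from, so the BRG1 shares are a description only. Copies differ in surroundings and in how uniquely they can be read, and no test was run.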
